A study of Mus musculus with 4 samples.

Results

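T-box genes encode transcription factors that share a DNA-binding domain, the T-box, and 9 of them are described here in mouse embryonic stem cells depleted of hnRNP K. The 9 genes are T, also called Brachyury, with Tbx1, Tbx2, Tbx4, Tbx5, Tbx6, Tbx15, Tbx18 and Tbx20. They were taken by name from a table of 22138 genes, as T-box genes used neither in naive pluripotency nor in trophectoderm and mostly silent in these cells. They were selected on their RPKM in these libraries, low in controls and with a known response to Hnrnpk siRNA, so their values are given as a description, with no test. The other 8 T-box genes of the table are Tbx3, Eomes, Tbr1, Tbx10, Tbx19, Tbx21, Tbx22 and Mga. Of these, Tbr1, Tbx10, Tbx19 and Tbx22 were under 0.1 RPKM in every library, so the 9 are not all the low T-box genes.

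RNA was sequenced from TT2 embryonic stem cells of strain C57BL/6xCBA, described as a female line and kept without feeder cells in serum with LIF. The sex of the cells was not checked here. Cells received control siRNA (n = 2) or Hnrnpk siRNA (n = 2) at 100 nM and again at 50 nM after 24 hours, and were harvested about 72 hours after the second dose. Hnrnpk stood at 236 and 226 RPKM (reads scaled by transcript length and by library size) after control siRNA and at 68.0 and 70.5 RPKM after Hnrnpk siRNA, so some Hnrnpk transcript was left in every library. The 2 libraries of a group are described as biological replicates, but nothing says that they came from separate cultures, so p-values measure only the spread between these libraries. Depth, read from the lowest values and relative to control replicate 1, was between 0.882 and 0.982 in the other libraries. All 10 embryonic stem cell markers examined were in the fit, 2 called higher and 4 lower, against 32.2% and 35.0% of all genes in the fit. The markers' sum was 3935 to 4094 RPKM in the control and 4699 to 5022 RPKM in the Hnrnpk siRNA libraries. Without Dppa5a, the most abundant, the other 9 summed to 2658 to 2774 and to 2535 to 2570 RPKM, so the higher sum rests on that gene. These 9 did not move together. Nanog was called higher, from 196.9 to 347.5 RPKM on average. The 4 called lower were Sox2, from 213.1 to 146.4 RPKM on average, Utf1, Fgf4 and Tdgf1.

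In the embryo, T-box factors are switched on as cells leave pluripotency and take up mesodermal, cardiac, limb or other fates. Wnt, Nodal and BMP signals activate T in the primitive streak, where mesoderm forms, and later members pattern the somites, heart, pharynx and limbs. In undifferentiated embryonic stem cells most of these genes are held at a low level, many of them by Polycomb proteins. hnRNP K is known to bind C-rich stretches of RNA and of single-stranded DNA.

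RefSeq promoter windows on GRCm38.p6 were matched for 6 of the 9 genes (T, Tbx1, Tbx4, Tbx6, Tbx18 and Tbx20), with 2 start sites for Tbx1. The 250 bases before the start site are shown for T, the streak gene, for Tbx4 and Tbx20, the members with the highest values after Hnrnpk siRNA, and for Tbx6, the member that was lower. Capitals mark the C-rich string CCCTCCCC or its reverse complement.
T, chr17:8434173-8434422, plus strand: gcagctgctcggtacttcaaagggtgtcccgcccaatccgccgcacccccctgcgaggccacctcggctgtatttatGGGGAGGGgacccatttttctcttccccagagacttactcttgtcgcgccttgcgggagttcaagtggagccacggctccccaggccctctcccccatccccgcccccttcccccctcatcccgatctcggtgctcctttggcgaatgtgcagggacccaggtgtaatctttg
Tbx4, chr11:85896515-85896764, plus strand: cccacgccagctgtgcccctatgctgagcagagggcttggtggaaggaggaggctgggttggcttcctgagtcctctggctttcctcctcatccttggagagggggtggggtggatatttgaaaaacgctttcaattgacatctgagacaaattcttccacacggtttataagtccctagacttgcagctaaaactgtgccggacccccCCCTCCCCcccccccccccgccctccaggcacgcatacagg
Tbx20, chr9:24774304-24774553, minus strand: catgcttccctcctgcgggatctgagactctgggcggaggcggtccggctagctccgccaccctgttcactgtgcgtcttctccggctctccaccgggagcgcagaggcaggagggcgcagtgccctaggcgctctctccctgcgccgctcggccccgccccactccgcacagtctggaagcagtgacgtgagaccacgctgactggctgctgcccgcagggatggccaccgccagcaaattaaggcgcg
Tbx6, chr7:126781233-126781482, plus strand: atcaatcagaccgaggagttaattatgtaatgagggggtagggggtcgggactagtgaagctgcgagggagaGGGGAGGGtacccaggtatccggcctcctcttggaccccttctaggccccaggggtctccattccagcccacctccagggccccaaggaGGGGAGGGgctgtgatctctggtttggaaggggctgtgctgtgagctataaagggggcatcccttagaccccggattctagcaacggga

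The string CCCTCCCC, read on both strands, was present in the windows of T, Tbx4, Tbx6 and Tbx18. That is 4 of the 7 windows of the 6 genes, and 9.69% of the 32851 windows of all genes held it. Among the 11299 windows with a GC content between 54% and 68.8%, the range of the members, the share was 13.8%. The Tbx18 window, with the string at -49, also holds an exon of D030062O11Rik. In Tbx4 the string began at position -41 from the start and was flanked by further C on both sides, and in Tbx6 there were 2 matches, at -178 and -89. The Tbx20 window held none, and it was the richest in GC, at 68.8% with 22 CpG dinucleotides, where the median GC content of all windows was 52.4%. The string GGTGTGA, the core of the sequence that T-box factors bind, was in none of the members' windows and in 3.33% of all windows. The Tbx4 start site of RefSeq lies inside the GENCODE M21 gene, whose annotated start is further upstream. Such a match is a description of these letters only, since no binding or chromatin data were analysed here.

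Of the 9 genes, 8 had higher values in both Hnrnpk siRNA libraries than in both control libraries, and Tbx6 had lower values in both. Among the 18814 genes above 0 in any library, the same order was seen in 39.0% for higher and 37.5% for lower, with 41.2% and 43.5% among the genes in the fit and 34.5% higher among genes with a mean under 0.5 RPKM. Nothing is read from the members' counts because the comparison was used to choose them. The 9 genes summed to 3.20 and 3.31 RPKM with control siRNA and to 9.91 and 9.60 RPKM with Hnrnpk siRNA, a ratio of 2.99. Tbx20 alone gave 21.6% and 18.1% of that sum in the controls and 42.7% and 40.0% after Hnrnpk siRNA. In bulk RNA a gene expressed in more cells and a gene expressed more highly per cell cannot be told apart.

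**Figure D1:**
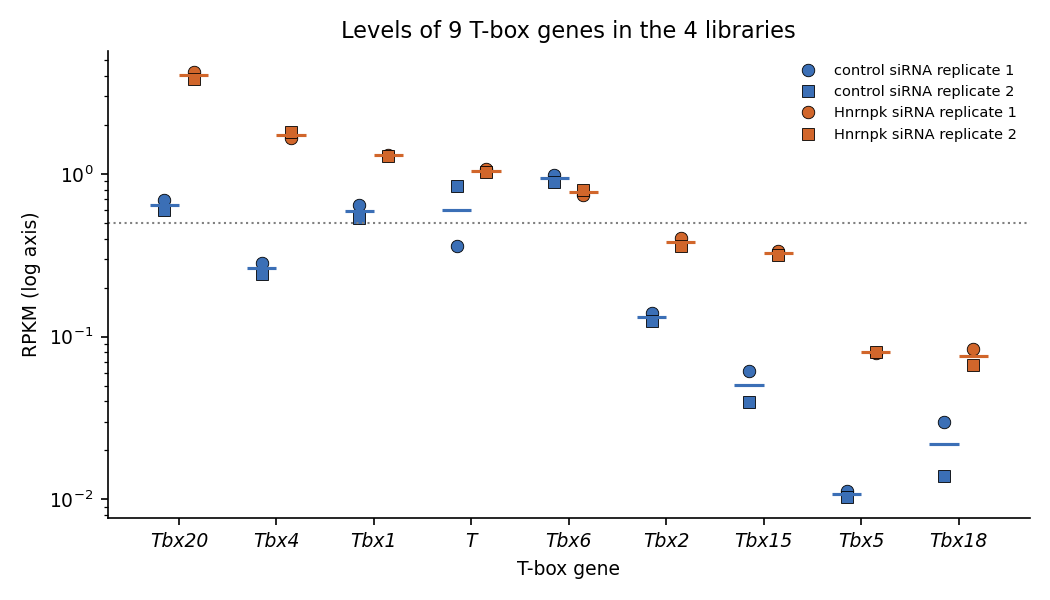
RPKM (log axis) of the 9 T-box genes in each of the 4 libraries, ordered by their mean after Hnrnpk siRNA. Symbols are libraries, short lines are group means, and the dotted line is 0.5 RPKM; the groups do not overlap for any gene, and only Tbx6 is lower after Hnrnpk siRNA.

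T and Tbx6 act early, T in the primitive streak and notochord and Tbx6 in the presomitic mesoderm, where it directs cells to the paraxial fate and away from a neural one. T (ENSMUSG00000062327, GRCm38 chromosome 17, 8434423 to 8442496, plus strand) measured 0.361 and 0.846 RPKM in control replicates 1 and 2, against 1.07 and 1.03 RPKM with Hnrnpk siRNA. The control libraries therefore differed more from each other than control replicate 2 did from either Hnrnpk siRNA library. The group levels were 0.604 ± 0.343 and 1.05 ± 0.0302 RPKM (SD, n = 2 each), and the difference on the log2(RPKM + 0.5) scale, which understates the change of low genes, was 0.52 (SE 0.175). That difference rests on control replicate 1, being 0.20 without it and 0.85 without control replicate 2. Tbx6 (ENSMUSG00000030699, chromosome 7, 126781483 to 126785560, plus strand) stood at 0.981 and 0.897 RPKM after control siRNA and at 0.746 and 0.799 RPKM after Hnrnpk siRNA. It had the highest control mean of the 9 genes, and its groups lay close together without overlap, with a log2 difference of -0.18 (SE 0.0954). The sizes of that difference ranged from -0.25 to -0.12 over the alternative settings.

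Tbx20 and Tbx1 had the highest levels among the heart and pharyngeal genes. Tbx20, which is required for growth and looping of the heart tube, measured 0.693 and 0.598 RPKM with control siRNA against 4.23 and 3.84 RPKM with Hnrnpk siRNA. Every Hnrnpk siRNA value was at least 5.54 times every control value. Tbx20 (ENSMUSG00000031965, chromosome 9, 24718138 to 24774303, minus strand) thus went from 0.646 ± 0.0668 to 4.04 ± 0.274 RPKM (SD, n = 2 each), a log2 difference of 1.98 (SE 0.0953). Tbx1, a regulator of the pharyngeal arches and of the cardiac outflow tract, was listed at 0.644 and 0.538 RPKM in the controls and at 1.31 and 1.29 RPKM after Hnrnpk siRNA. The lower of the Hnrnpk siRNA values was 2.01 times the higher control value, and the replicates of each group lay close together. Tbx1 (ENSMUSG00000009097, chromosome 16, 18580979 to 18590671, minus strand) had group levels of 0.591 ± 0.0749 and 1.30 ± 0.0131 RPKM (SD, n = 2 each) and a log2 difference of 0.72 (SE 0.0975).

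Tbx2, Tbx5 and Tbx18 were far lower, and each had a mean under 0.5 RPKM over the 4 libraries, the limit for entering the fit across genes. Tbx2, a repressor that keeps chamber genes off in the atrioventricular canal, was listed at 0.139 and 0.125 RPKM in the controls and at 0.401 and 0.363 RPKM after Hnrnpk siRNA, a ratio of means of 2.89. The lower Hnrnpk siRNA value of Tbx2 (ENSMUSG00000000093, chromosome 11, 85832551 to 85841948, plus strand) was 2.61 times the higher control value. Tbx5, needed for the forelimb and for septation of the heart, was listed at 0.0112 and 0.0104 RPKM in the controls and at 0.0791 and 0.0810 RPKM after Hnrnpk siRNA, a ratio of 7.40. The ratio of Tbx5 (ENSMUSG00000018263, chromosome 5, 119832668 to 119885219, plus strand) was the largest of the 9 genes and rested on the lowest control level of all. At the estimated depth, the Tbx5 values corresponded to 6.52 and 5.93 read units in the controls and to 40.9 and 41.5 after Hnrnpk siRNA, a unit being a read or a read pair. Tbx18, a gene of the epicardium, the sinus node and the somites, was listed at 0.0300 and 0.0140 RPKM in the controls and at 0.0840 and 0.0673 RPKM after Hnrnpk siRNA. Its 2 controls differed by a factor of 2.14, against a ratio of 3.44 between the group means, and rested on 17.6 and 8.07 read units. The exons of Tbx18 (ENSMUSG00000032419, chromosome 9, 87702800 to 87731260, minus strand) share 970 bases with D030062O11Rik on the other strand, and without a stated strand the reads of the 2 cannot be told apart.

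Tbx4 and Tbx15 belong to the limb and skeleton. Tbx4, which drives outgrowth of the hindlimb and acts in lung mesenchyme and allantois, was listed at 0.284 and 0.243 RPKM in the controls and at 1.66 and 1.81 RPKM after Hnrnpk siRNA. Its Hnrnpk siRNA values were at least 5.83 times its control values. Tbx4 (ENSMUSG00000000094, chromosome 11, 85886422 to 85916097, plus strand) went from 0.263 ± 0.0291 to 1.74 ± 0.113 RPKM (SD, n = 2 each), a log2 difference of 1.55 (SE 0.0974), and it entered the fit only through the Hnrnpk siRNA libraries. Tbx15, which shapes limb bones and the skin's dermis, was listed at 0.0613 and 0.0394 RPKM in the controls and at 0.334 and 0.318 RPKM after Hnrnpk siRNA, a ratio of 6.48. These values of Tbx15 (ENSMUSG00000027868, chromosome 3, 99240381 to 99354259, plus strand) corresponded to 28.5 and 18.0 read units in the controls against 139 and 131 after Hnrnpk siRNA.

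By mean level after control siRNA the order was Tbx6, Tbx20, T, Tbx1, Tbx4, Tbx2, Tbx15, Tbx18 and Tbx5, where Tbx20 and Tbx1 at 0.646 and 0.591 RPKM did not differ beyond the spread of their replicates, nor did T, with its wide spread, from Tbx6, Tbx20, Tbx1 or Tbx4, nor Tbx18 and Tbx5 at 0.0220 and 0.0108 RPKM. After Hnrnpk siRNA the order was Tbx20, Tbx4, Tbx1, T, Tbx6, Tbx2, Tbx15, Tbx5 and Tbx18, where Tbx5 and Tbx18 at 0.0801 and 0.0757 RPKM did not differ beyond their spread. Tbx6 moved from the top of the 9 to the middle, and Tbx4 from the middle to the second place. These levels are per length of transcript, but the lengths used are not given, so the order across genes is approximate.

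How large the members' differences look depends on the constant added before the log. With 0.1, 0.5 and 1 RPKM added, the log2 difference was 2.47, 1.98 and 1.61 for Tbx20, 2.34, 1.55 and 1.11 for Tbx4, and 1.51, 0.59 and 0.34 for Tbx15. The direction was kept by all 9 genes with each constant and under each of the other alternatives run. Because the groups do not overlap for any of the 9, no constant and no left-out library could reverse it. The filters, the trend and the replicate block leave the difference unchanged, so only the scalings could have reversed it. Of the 9, 5 entered the fit (T, Tbx1, Tbx4, Tbx6 and Tbx20), and limma's threshold, a Benjamini-Hochberg adjusted p under 0.05, was passed by 4 of them, against 67.2% of all 12486 genes in the fit. Nothing is read from that count.

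**Figure D2:**
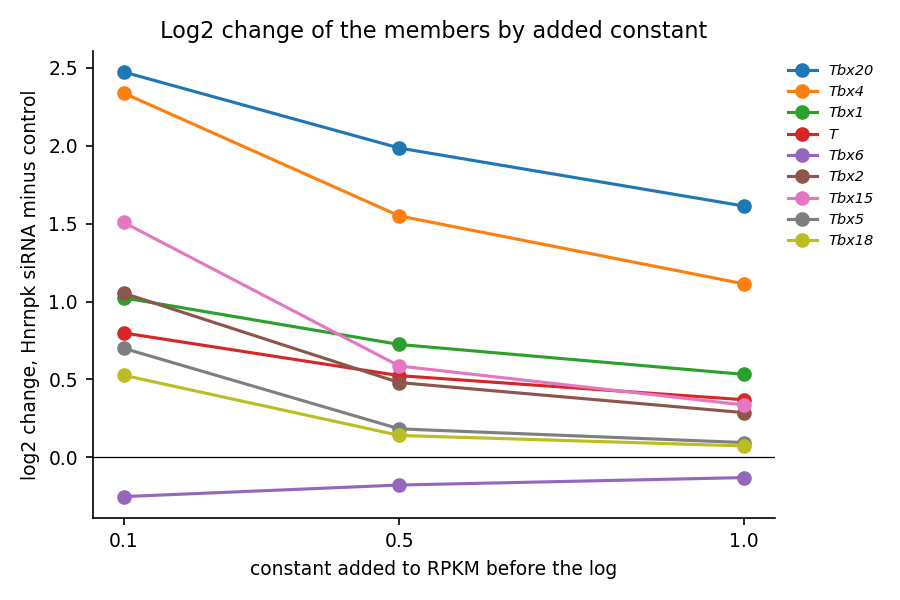
Log2 difference between the groups (Hnrnpk siRNA minus control) of the 9 T-box genes, by the constant added to RPKM before the log; each line is a gene. The order of Tbx15 and Tbx1 changes with the constant, and the low genes Tbx5 and Tbx18 move towards 0 as it grows, from 0.70 to 0.096 for Tbx5.

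The other 8 T-box genes did not move in a common direction. Tbx3, a factor of naive pluripotency, stood at 16.4 and 14.8 RPKM in the controls and at 64.0 and 61.1 RPKM after Hnrnpk siRNA. It was called higher, with a change of 1.97 in log2 (SE 0.0703, limma adjusted p = 6.11e-08). Eomes, which acts in trophectoderm and primitive streak, rose from 1.54 and 1.09 RPKM to 5.32 and 4.99 RPKM (1.65 in log2, SE 0.120, limma adjusted p = 2.84e-06). Tbx21, or T-bet, the regulator of type 1 helper T cells, fell from 1.76 and 1.45 RPKM to 0.617 and 0.693 RPKM (-0.86 in log2, SE 0.105, limma adjusted p = 6.87e-05). The rises of Tbx3 and Eomes and the fall of Tbx21 were larger than the spread between replicates and kept their call under all 13 alternatives. Exons of Tbx3 and Eomes share 115 and 118 bases with the antisense genes Tbx3os1 and Gm33460, whose reads cannot be told apart from theirs without strand.

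Mga, a very large protein that carries a T-box and also joins the PRC1.6 complex, had 19.2 and 19.3 RPKM in the controls and 17.9 and 15.8 RPKM after Hnrnpk siRNA. Its log2 change of -0.19 just passed the threshold (SE 0.0745, limma adjusted p = 0.0479), and 6 alternatives ended the call, with a log2 change of -0.10 without Hnrnpk siRNA replicate 2. The remaining 4, Tbr1, Tbx10, Tbx19 and Tbx22, were under 0.1 RPKM in every library and were not fitted. Tbr1 of cortical neurons was listed at 0.0220 and 0.0142 RPKM in the controls and at 0.0734 and 0.0510 RPKM after Hnrnpk siRNA, while Tbx19 of the pituitary was listed at 0.0522 and 0.0873 RPKM and at 0.0266 and 0.0214 RPKM. Tbx22, a gene of palate development, had at most 0.00814 RPKM. Tbx10 had 0.0317 and 0.0377 RPKM in the controls and 0.0254 and 0.0437 RPKM after Hnrnpk siRNA, and for both genes the groups overlapped.

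**Figure D3:**
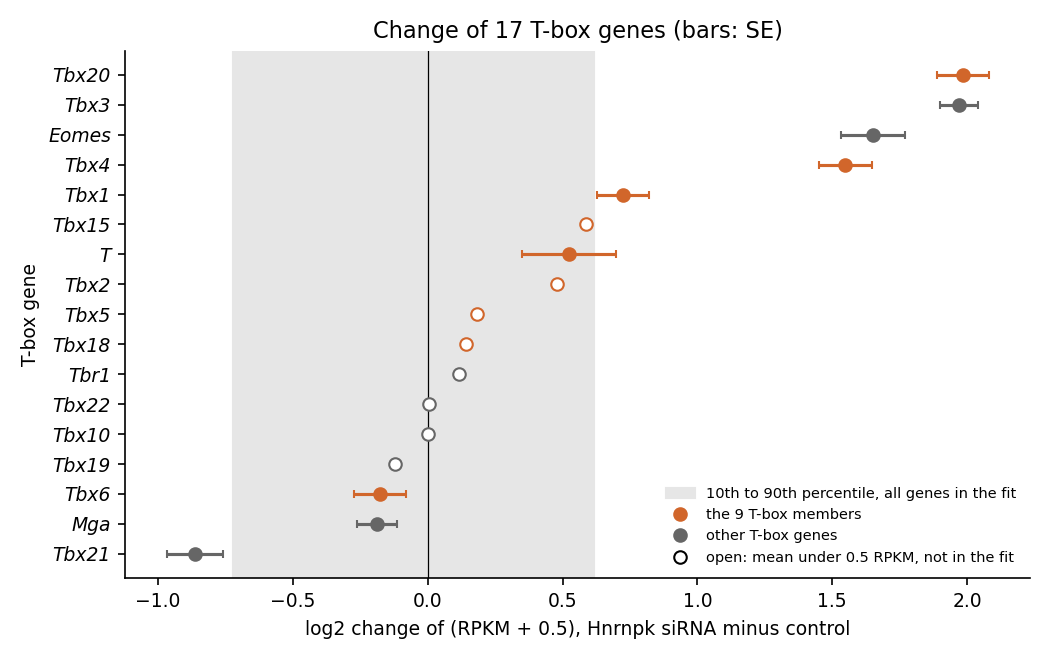
Log2 difference of (RPKM + 0.5), Hnrnpk siRNA minus control, for the 17 T-box genes, with SE bars for the genes in the fit and open symbols for those under 0.5 RPKM. The grey band runs from -0.72 to 0.62, the 10th to 90th percentile of all genes in the fit; Tbx20, Tbx3, Eomes, Tbx4 and Tbx1 lie above it and Tbx21 below it.

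Position on the chromosome was not used to choose the genes. Tbx2 and Tbx4 lie 44.5 kb apart on chromosome 11 and Tbx3 and Tbx5 lie 148 kb apart on chromosome 5, as neighbouring pairs that descend from an ancient duplication. The ratio of mean RPKM, Hnrnpk siRNA over control, was 2.89 for Tbx2 and 6.59 for Tbx4, and 4.01 for Tbx3 and 7.40 for Tbx5. Tbx3 stood far above its partner in level, at 62.6 against 0.0801 RPKM after Hnrnpk siRNA.

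The nearest genes of the table on either side of the 9 members were 17 genes, of which 12 were in the fit. By limma 8 of the 12, Tbx3 among them, were called higher, 2 lower and 2 not, against 32.2% higher and 35.0% lower among all genes in the fit. Prr18 passed the limit of 0.5 RPKM only through the Hnrnpk siRNA libraries, so its call could go only 1 way. Prr18, 90.3 kb from T, rose from 0.191 ± 0.0266 to 0.813 ± 0.0697 RPKM, and Gnb1l, 14.3 kb from Tbx1, rose from 3.99 ± 0.193 to 7.93 ± 0.870 RPKM (SD, n = 2 each). Bcas3, 6.49 kb from Tbx2, and Wars2, 1195 bases from Tbx15, had log2 changes of 0.51 and 0.46. Rbm19, 231 kb from Tbx5, had 0.25, and 4922501C03Rik and Nt5e, 447 and 596 kb from Tbx18, had 0.57 and 0.36. The highest limma adjusted p of these was 0.0121, for Nt5e, and the call of Nt5e was lost without Hnrnpk siRNA replicate 2 (log2 change 0.30).

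Next to Tbx20 and Tbx4, the 2 members with the highest levels after Hnrnpk siRNA, the neighbours were silent or lower. Both neighbours of Tbx20 were at or near 0, Gm10181 being listed at 0 in every library and Dpy19l2 at 0.0113 and 0.0286 RPKM in the controls and 0.0104 and 0.0332 RPKM after Hnrnpk siRNA. On the far side of Tbx4, Brip1, a helicase of DNA repair, had a change of -0.26 in log2 (SE 0.0817, limma adjusted p = 0.0176), not called without Hnrnpk siRNA replicate 2 (-0.20). Tbx6 lies 969 bases from Ypel3 and 306 bases from Ppp4c, a phosphatase gene at 195 ± 2.12 and 196 ± 6.27 RPKM (SD, n = 2 each), which was not called (log2 change 0.0088, limma adjusted p = 0.910). Ypel3 was called lower, with a change of -0.38 in log2 (SE 0.0927, limma adjusted p = 0.00522), though not without Hnrnpk siRNA replicate 1 (-0.29). Gp1bb, a platelet receptor gene 29.6 kb from Tbx1, was not called (log2 change 0.020, limma adjusted p = 0.876). Nt5e, Brip1 and Ypel3 were also not called with no filter on low values.

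**Figure D4:**
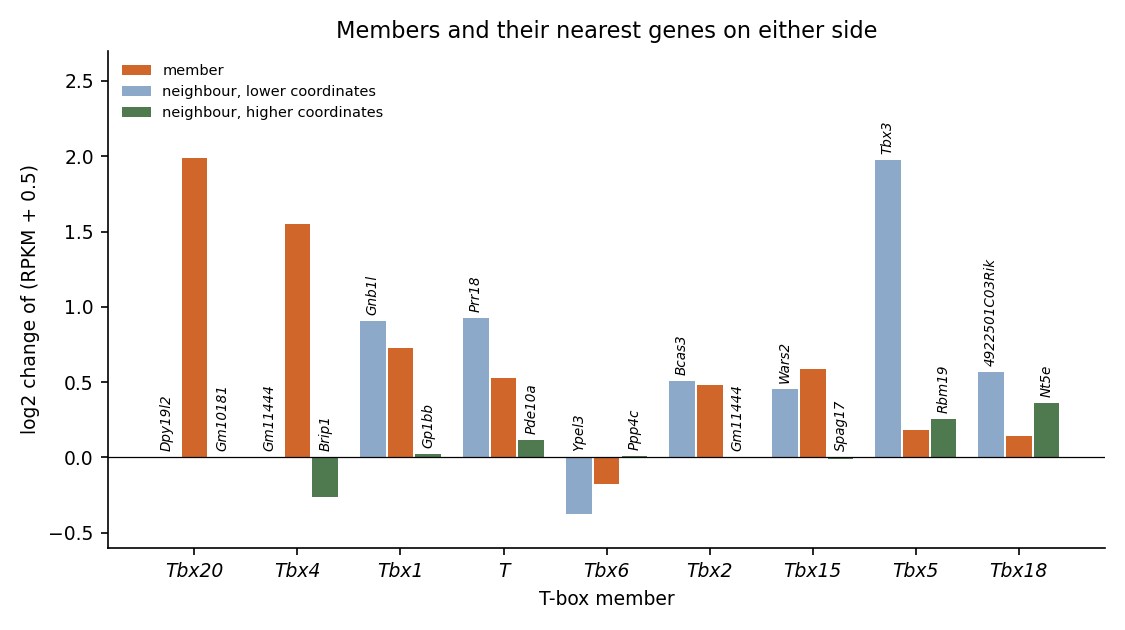
Log2 difference of (RPKM + 0.5), Hnrnpk siRNA minus control, of each of the 9 T-box genes (orange) and of the nearest gene of the table on its lower-coordinate (blue) and higher-coordinate (green) side. Bars start at 0; Tbx20 at 1.98 and Tbx4 at 1.55 stand beside genes between -0.26 and 0.0050, and Tbx5 stands beside Tbx3 at 1.97.

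The signals that switch on T-box genes were measured as a list of 25 ligands, receptors, effectors and feedback genes, of which 23 were in the fit. By limma 9 were called higher and 6 lower, against 32.2% and 35.0% of all genes in the fit, and the median log2 change was 0.097 against -0.015 over all genes. Of the 9, Wnt3, Wnt8a and Dkk1 passed the limit of 0.5 RPKM only through the Hnrnpk siRNA libraries, so their calls could go only 1 way. Nodal, the ligand that forms the streak, rose from 19.3 and 19.6 RPKM to 64.7 and 69.9 RPKM (1.77 in log2, SE 0.0656, limma adjusted p = 7.58e-08). Wnt3 rose from 0.236 and 0.345 RPKM to 1.16 and 1.19 RPKM, and Bmp4 from 17.5 and 17.3 RPKM to 29.5 and 29.9 RPKM, with log2 changes of 1.09 and 0.76. Wnt3a was under the limit for the fit, at 0.238 and 0.245 RPKM in the controls and 0.735 and 0.690 RPKM after Hnrnpk siRNA. Dkk1, a secreted Wnt inhibitor, rose from 0.0478 ± 0.0160 to 1.15 ± 0.157 RPKM (SD, n = 2 per group), or 1.59 in log2.

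Tcf7, a nuclear effector of Wnt signalling, went the other way, from 67.2 ± 7.71 to 31.4 ± 2.50 RPKM (SD, n = 2 per group), or -1.09 in log2 (SE 0.0880, limma adjusted p = 5.6e-06). Fgf4 and the activin receptor gene Acvr2b each had a log2 change of -0.30, and Acvr2b was not called without Hnrnpk siRNA replicate 2 (-0.24). With no filter on low values neither was called. Without Hnrnpk siRNA replicate 2 the genes called lower in this list numbered 3. Axin2, Sp5, Lefty1 and Lefty2, also in the list, were not called, with log2 changes of 0.14, -0.054, -0.28 and 0.21. Lef1, Tdgf1 and Smad4 were called lower (-0.40, -0.24 and -0.18 in log2). Id1 and the effector genes Foxh1, Ctnnb1 and Smad2 were called higher (1.12, 0.70, 0.34 and 0.21). Whether signalling itself changed was not tested.

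Genes that act with T and Tbx6 in streak, notochord and paraxial mesoderm were mostly low. Of 29, 13 were in the fit, with 8 called higher and 4 lower by limma and a median log2 change of 0.44, and 2 of the 8, Gsc and Snai2, were in the fit only through the Hnrnpk siRNA libraries. Among all genes in the fit 32.2% were called higher and 35.0% lower, here and for the lists that follow. Snai1, which drives cells out of the epithelium, rose from 2.18 and 2.13 RPKM to 17.8 and 18.2 RPKM (2.80 in log2, SE 0.0742, limma adjusted p = 2.04e-08). Cdx1, a posterior homeobox gene, rose from 2.42 ± 0.278 to 7.54 ± 0.185 RPKM, and Mesp2, a somite boundary gene that Tbx6 activates, from 2.72 ± 0.280 to 5.72 ± 0.0907 RPKM (SD, n = 2 per group). These were changes of 1.46 and 0.95 in log2.

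Other genes of the same list fell while T was listed higher. Mixl1, a streak homeobox gene, fell from 1.46 and 1.25 RPKM to 0.670 and 0.572 RPKM (-0.73 in log2, SE 0.103, limma adjusted p = 0.000188). Dll3, a Notch ligand of the presomitic mesoderm, and Tcf15, a somite factor, had log2 changes of -0.71 and -0.82. Mesp1 of early cardiac mesoderm was listed at 0.480 and 0.466 RPKM in the controls and at 0.243 and 0.183 RPKM after Hnrnpk siRNA. Msgn1, a presomitic gene that lies downstream of T-box factors, was listed at 0.171 and 0.0553 RPKM and at 0.0965 and 0.0618 RPKM, so its groups overlapped.

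Partners and targets of the heart, limb and pharyngeal members gave 8 genes in the fit out of 24, with 4 called higher, 2 lower and a median log2 change of 0.42. Gata6 went from 0.721 and 0.565 RPKM to 13.7 and 14.1 RPKM (3.66 in log2, SE 0.0928, limma adjusted p = 2.04e-08), and Gata4, its relative and a partner of TBX5 and TBX20, from 1.21 and 0.938 RPKM to 2.08 and 2.71 RPKM (log2 change 0.87). Hand1 of heart and trophoblast had a log2 change of 1.58, and the natriuretic peptide gene Nppb 1.21. Gata4 and Gata6 are counted again below as primitive endoderm markers, and Hand1 as a trophoblast marker. Nkx2-5, the cardiac homeobox partner of TBX5, fell from 1.02 and 0.831 RPKM to 0.515 and 0.656 RPKM (-0.39 in log2, SE 0.112, limma adjusted p = 0.0110) and was not called without Hnrnpk siRNA replicate 1 (-0.30). Wt1, a gene of the epicardium that Tbx18 also marks, had a log2 change of -0.86. With no filter on low values Gata4, Nkx2-5 and Wt1 were not called, and without Hnrnpk siRNA replicate 1 the genes called lower numbered 1. Of the 24, 8 were under 0.1 RPKM in every library, including Nppa, a direct target of TBX5, which was listed at 0 in all 4.

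Among 15 cofactors of T-box proteins, 13 were in the fit, with 3 called higher and 7 lower by limma, against 32.2% and 35.0% of all genes in the fit. Ripply1 and Ripply3, which recruit Groucho corepressors to T-box factors, went in opposite directions, with log2 changes of -0.53 and 0.42, and Ripply3 was not called without Hnrnpk siRNA replicate 2 (0.38). Smarcd3, a chromatin remodelling subunit of the heart, fell from 2.60 ± 0.0748 to 1.01 ± 0.0359 RPKM (SD, n = 2 per group), or -1.04 in log2, and Smarca4, the ATPase of the same complex, had a log2 change of -0.50. Hdac2 and Tle3 had log2 changes of 0.24 and 0.18. Hdac2 was not called without Hnrnpk siRNA replicate 1 (0.20), and Tle3 was not called without control replicate 2 (0.15) or without Hnrnpk siRNA replicate 1 (0.17) or 2 (0.20), or without limma's mean-variance trend (limma adjusted p = 0.052). Neither was called with libraries scaled to equal RPKM sums (0.15 and 0.095). The count of cofactors called higher was 1 under that scaling and 1 without either Hnrnpk siRNA library, and 4 were called lower without Hnrnpk siRNA replicate 1.

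All 16 Polycomb genes examined were in the fit, with 5 called higher, 5 lower and a median log2 change of 0.046. These counts are near the 32.2% and 35.0% of all genes. Bmi1 went from 0.899 ± 0.0854 to 2.76 ± 0.0341 RPKM, Eed from 96.9 ± 9.48 to 135 ± 7.11 RPKM and Rnf2 from 60.4 ± 0.833 to 75.1 ± 3.20 RPKM (SD, n = 2 each). Phc1 fell from 349 ± 2.47 to 190 ± 5.95 RPKM, Cbx7 from 59.3 ± 1.15 to 42.3 ± 1.07 RPKM and Phf19 from 10.5 ± 0.677 to 7.98 ± 0.186 RPKM (SD, n = 2 each). Their limma adjusted p ranged from 3.35e-06 for Phc1 to 0.00173 for Phf19. Eed was not called with no filter on low values, and without Hnrnpk siRNA replicate 2 the genes called lower numbered 3.

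**Figure D5:**
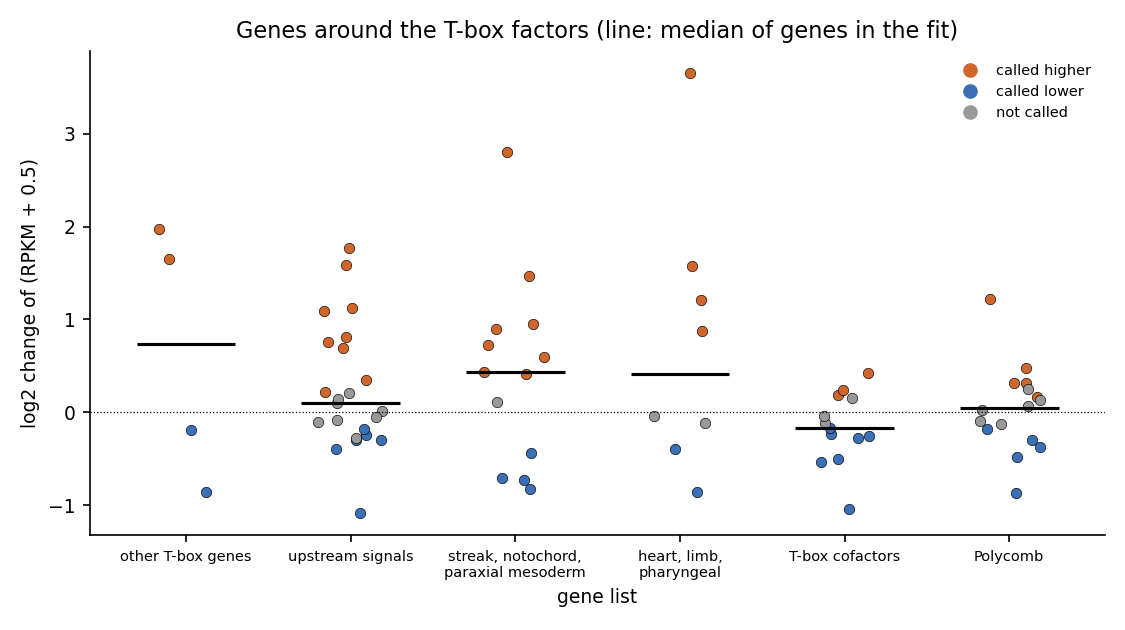
Log2 change of (RPKM + 0.5), Hnrnpk siRNA minus control, of the genes in the fit from 6 lists around the T-box factors; points are genes, coloured by limma's call, and lines are list medians. Each list holds genes called in both directions, and the medians run from -0.17 for the cofactors to 0.73 for the other T-box genes.

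Markers of other cell types were read from the same libraries, and some genes are shared between these lists and those above. Of 8 primitive endoderm markers, 7 were in the fit and 6 of them were called higher, with none at 0 and summed levels of 20.95 to 21.8 RPKM in the controls and 62.8 to 64.6 RPKM after Hnrnpk siRNA. All 5 trophoblast markers in the fit, of 7 in the table, were called higher, with sums of 33.2 to 39.1 and 68.5 to 73.4 RPKM. The largest values in these sums were those of Krt18 (17.35 to 32.04 RPKM on average) and Krt8 (12.27 to 22.42). Of the 2 outside the fit, Cdx2 was listed higher (0.234 to 0.740 RPKM on average) and Elf5 lower (0.107 to 0.0657). The 6 definitive endoderm markers had sums of 5.54 to 6.36 and 11.8 to 12.4 RPKM, with 2 of 3 in the fit called higher. Among the calls, Pdgfra of primitive endoderm and Foxa1 of definitive endoderm were in the fit only through the Hnrnpk siRNA libraries. The part of these cell types in the members' values was not tested. Fibroblast markers had sums of 9.45 to 10.95 RPKM in the controls and 5.44 to 5.66 RPKM after Hnrnpk siRNA, with 6 of 11 under 0.1 RPKM in every library. Of the 3 in the fit none was called higher and 2 were called lower. These were Thy1, from 6.05 to 2.25 RPKM on average, and Col1a1, from 2.57 to 1.79 RPKM. The 8 cardiomyocyte markers had sums of 12.5 to 12.9 and 7.15 to 8.25 RPKM, with none called higher. Of the 3 in the fit only Myl7 was called lower, from 7.995 to 3.41 RPKM on average, and the other 7 summed to 4.399 to 5.02 and to 4.22 to 4.36 RPKM. The 7 neuroectoderm markers had sums of 9.14 to 9.33 and 7.67 to 8.25 RPKM, with 2 of 3 in the fit called lower and 1, Neurod1, called higher (limma adjusted p = 0.0385).

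Finally, the genes in the fit whose 4 library values were nearest to each member were found by the Euclidean distance of their log2(RPKM + 0.5) values, each gene centred on its mean. For Tbx20 the nearest gene was Tbx3, at a distance of 0.0450, followed by Laptm5 and Gm13119. For Tbx4 the nearest were Glt25d2, Hand1 and Osr2, at 0.0372, 0.0460 and 0.0518. For Tbx1 they were Ciz1, Tmem19 and Cd3e, and for Tbx6 Hdgfrp2, Mapkapk2 and Pigs, all under 0.02. T, with its unequal controls, had no gene as near: 4930591A17Rik lay at 0.111, with 0.492 and 0.995 RPKM in the controls and 1.127 and 1.199 RPKM after Hnrnpk siRNA, and Herpud1 at 0.153. Each distance was taken over 4 libraries, 2 per group, and is a description with no test.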

How the data were processed

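The authors deposited RPKM values per gene, 1 column per library, with replicates not pooled. Per the submitters' processing notes, BWA, SAMtools and the mm9 build were used, with no versions or roles. Not given in the sources used here: counter, annotation, strand and the treatment of multiply mapped reads. The labels name both ribosomal RNA depletion and poly(A) selection.

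Values were analysed as log2(RPKM + 0.5) by two-sided moderated tests in limma (version 3.58.1, under R 4.3.3), allowing the variance to follow the mean. The fit held the 12486 genes whose 4-library mean reached 0.5 RPKM, and the Benjamini-Hochberg adjustment ran over all of them (threshold 0.05). The fit was run on simulated data in which 200 genes were changed, a far smaller share than was called here. That run therefore does not measure false calls in these data. For groups of 2, the smallest exact permutation p is 0.333. Positions and exonic lengths came from GENCODE M21 (GRCm38), which held 92.8% of the identifiers. Where a symbol occurred on several rows, the row found in M21 was used. Relative depth came from the commonest low value of genes with 1 exon; read units are RPKM times exonic length times that depth. Whole reads were not recovered.

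The members and the lists were chosen with earlier results of these data known. Genes named from a list are its 3 called members with the lowest adjusted p in each direction, plus Wnt3, Wnt3a, Nodal, Bmp4, Mixl1, Mesp1, Msgn1, Nkx2-5 and Gata4 whatever their values, with all T-box genes, neighbours and the 3 nearest genes of each fitted member, 1 of which is not reported here. Nppa, the named cell type markers and genes named for how they passed the filter (Wnt8a, Gsc, Snai2) were chosen after their values were seen. So were Axin2, Sp5, Lefty1, Lefty2, Lef1, Tdgf1, Id1, Foxh1, Ctnnb1, Smad2 and Smad4. Alternatives were other constants (0.1 and 1 RPKM), filters (none and 1 RPKM), scalings, limma without the trend, a replicate block and leaving out each library.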

Additional observations from a re-analysis of the deposited data

How the results depend on the processing

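Counts over all genes stayed within 1.5 times under the 13 alternatives. The median log2 difference of the 9 T-box genes, 0.52, was 1.02 with 0.1 RPKM added, 0.34 with 1 RPKM added and 0.47 with libraries scaled to equal RPKM sums. Members passing limma's threshold numbered 7 with no filter, where all 9 were fitted. The calls over all 22138 genes in that setting were 3778 higher and 3771 lower. At a mean of at least 1 RPKM, where fewer members were fitted, 1 passed, and 3705 of all genes were called higher and 3954 lower. Nothing is read from the members' counts. With no filter, genes called lower numbered 1 among the other T-box genes, 2 among upstream signals, 0 among heart, limb and pharyngeal genes and 4 among cofactors, and 3 Polycomb genes were called higher. With a mean of at least 1 RPKM, 2 streak and mesoderm genes and 1 heart, limb or pharyngeal gene were called lower. The other T-box genes called lower numbered 1 under median-ratio scaling and without limma's trend, since Mga lost its call, and cofactors called higher numbered 1 with equal RPKM sums.

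Without 1 library at a time, genes called lower ranged from 1 to 2 for the other T-box genes, 3 to 7 for upstream signals, 1 to 3 for heart, limb and pharyngeal genes, 4 to 7 for cofactors and 3 to 5 for Polycomb, and cofactors called higher from 1 to 3. Of 590 comparisons for 46 other single genes, 28 lost a call and 0 reversed. The cause was not tested.

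Replicate numbers are shared between groups, but same-numbered libraries did not deviate together (correlation 0.027 across genes). With the replicate block 4162 genes were called higher and 4460 lower, against 4025 and 4371, and it ended no call of the single genes compared. Low depth limits Tbx5, Tbx18, Tbr1, Tbx10, Tbx19 and Tbx22, whose lowest library held under 10 read units.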
